A study of Caenorhabditis elegans with 6 samples.

Results

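The insulin/IGF-1 receptor pathway of *C. elegans* was followed at the mRNA level through its 10 core genes, *daf-2*, *ist-1*, *age-1*, *aap-1*, *pdk-1*, *akt-1*, *akt-2*, *sgk-1*, *daf-18* and *daf-16*. They were taken by name, from the receptor to the transcription factor, out of the 46739 genes of the count table. All 10 were found and all 10 passed the filter on low counts, among 15003 genes tested. RNA-Seq had been done on 3 libraries from worms fed bacteria with the empty L4440 vector and 3 libraries labelled Y37A1B.5 RNAi, each from a whole lysate of pooled wild-type Bristol N2 worms. Both groups were raised at 20 °C on *E. coli* OP50 to young adulthood and then kept for 5 days on *E. coli* HT115 with the respective plasmid, so that they share strain, age, temperature and the L4440 backbone and differ in the insert. Sequencing was done on poly(A) RNA of the whole animal, so that a lower value may stem from fewer cells of a type or from less RNA per cell, which cannot be told apart.

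In this pathway, insulin-like peptides bind the receptor tyrosine kinase DAF-2, which acts through the PI3 kinase AGE-1 to raise the membrane lipid PIP3. PIP3 recruits the kinases PDK-1, AKT-1 and AKT-2, and AKT phosphorylates the FoxO transcription factor DAF-16 and so keeps it out of the nucleus. DAF-18, a lipid phosphatase, removes PIP3 and opposes AGE-1. The pathway is best known for the long life and the dauer larvae of *daf-2* and *age-1* mutants, both of which need *daf-16*. Its activity is set largely by phosphorylation and by where DAF-16 resides, which mRNA levels do not report.

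The libraries held between 34403223 and 46733527 counts. *Y37A1B.5* (WBGene00012538), the gene the plasmid is directed against, was counted 1126, 1295 and 792 times in the control libraries against 4833, 3519 and 4189 times in the labelled ones, a log2 fold change of 1.85 with a standard error (SE) of 0.22 (edgeR adjusted p = 0.000834). This goes against the label, and since the count does not part worm mRNA from the RNAi construct, this group is called the labelled libraries throughout. Of the genes tested, 13.7% were called, meaning an adjusted p under 0.05 (edgeR quasi-likelihood test, Benjamini-Hochberg adjustment), 4.81% being higher and 8.85% lower in the labelled libraries. Long transcripts lay lower in these libraries. As log2 differences to the control mean, genes with transcripts of 3043 bp or more had medians of −0.13, −0.14 and −0.45 in labelled replicates 1 to 3, and an equal number of genes with the shortest transcripts had 0.030, 0.068 and 0.15. Labelled replicate 3 therefore stands apart, and results that rest on it are given with and without it.

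None of the 10 pathway genes passed the threshold. The count was 0 with edgeR and 0 with DESeq2, against 13.7% of all genes called with edgeR and 19.3% with DESeq2, and 2 of the 10, *daf-2* and *ist-1*, had an unadjusted p under 0.05, which 33.1% of all genes had. Over all 10 the median log2 fold change was −0.076, beside −0.028 over all genes tested, with 3 positive and 7 negative values (4 and 6 with DESeq2 or with scaling to reference genes, where *akt-2* turned positive). Without labelled replicate 3 the median was 0.021, beside −0.0021 over all genes, with 6 positive and 4 negative values. With the trend of each library with transcript length removed, 8 values were positive and 2 negative. As fitted, every 95% interval of the log2 fold change lay between −0.77 and 0.30. For 3 of the 10 (*daf-2*, *ist-1* and *pdk-1*) every labelled library lay below every control library, and groups without overlap, in either direction, were found for 40.5% of all genes tested.

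The 10 genes spanned a wide range of abundance. To compare levels between genes, counts scaled to library size (CPM) were divided by the summed exon length of each gene in kb. In the control, *daf-18* was highest with 242 ± 16.9 CPM per kb (SD, n = 3), followed by *akt-1* (123 ± 3.39), *aap-1* (57.4 ± 2.13), *daf-16* (53.7 ± 1.03), *age-1* (26.7 ± 0.224), *daf-2* (24.6 ± 0.291), *pdk-1* (14.4 ± 0.238), *sgk-1* (11.6 ± 1.57), *akt-2* (6.55 ± 0.337) and *ist-1* (1.41 ± 0.104). No neighbours in this order overlapped between control libraries. The summed exon length exceeds the longest transcript for *daf-16* (3685 against 2765 bp) and *daf-2* (8296 against 7325 bp), but not for *aap-1* and *age-1*. Which of *aap-1* and *daf-16*, and which of *age-1* and *daf-2*, is higher therefore depends on the length used. The labelled libraries gave the same order, but there *age-1* (20.1 to 27.2 CPM per kb) overlapped *daf-2* (15.97 to 21.96), and *pdk-1* (11.6 to 13.9) overlapped *sgk-1* (10.4 to 12.2).

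**Figure D1:**
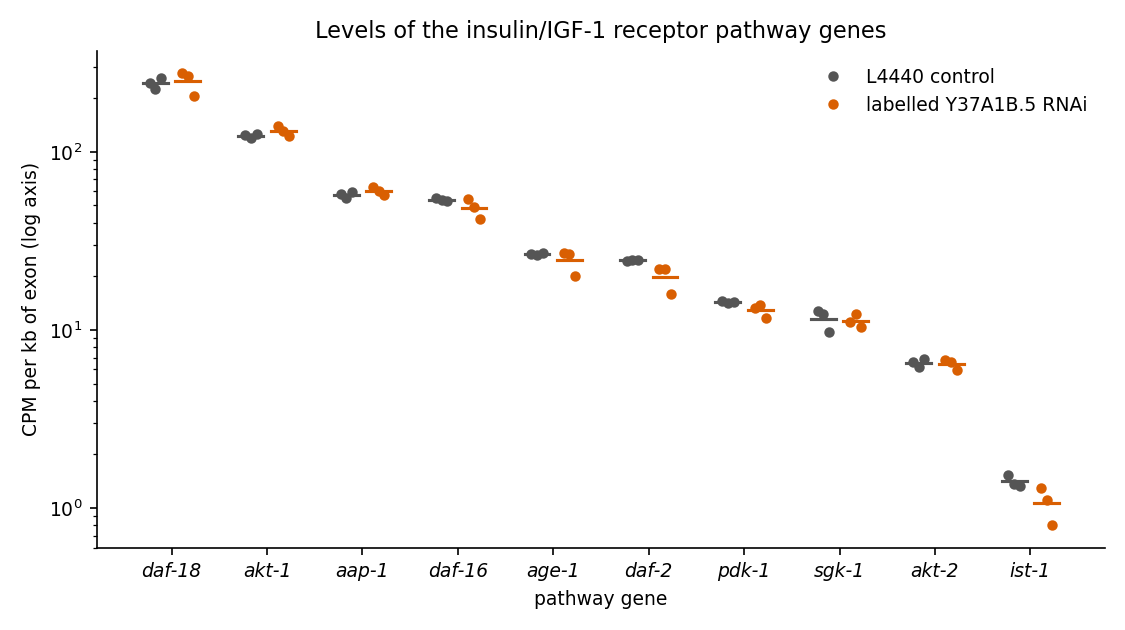
Level of each pathway gene in CPM per kb of exon (log axis), with 1 point per library and a line at the mean of 3 libraries, for the L4440 control (gray) and the libraries labelled Y37A1B.5 RNAi (orange). The genes keep their order from *daf-18* to *ist-1* in both groups, and the orange points spread more than the gray ones for *age-1*, *daf-2* and *daf-16*.

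The receptor gene *daf-2* (WBGene00000898) lies on the minus strand of chromosome III from 2994514 to 3040846 (WBcel235), and its longest transcript of 7325 bp is the longest among the pathway genes. It had 201, 206 and 205 CPM in control replicates 1 to 3 and 182, 182 and 132 CPM in the labelled ones. All labelled libraries lay below all control libraries, and replicate 3 lay farthest below. On average this was 204 ± 2.41 CPM against 165 ± 28.5 CPM (each SD, n = 3), or a log2 fold change of −0.30 with an SE of 0.11 (edgeR adjusted p = 0.0977), and the exact permutation test gave p = 0.1 (two-sided), the smallest p that 3 libraries against 3 allow. Without labelled replicate 3 the log2 fold change was smaller, −0.16, and *daf-2* was then called lower (edgeR adjusted p = 0.0262). When the trend of each library with transcript length was removed, the log2 fold change turned to 0.12 (edgeR adjusted p = 0.173). Over all alternatives the adjusted p of *daf-2* lay between 0.0144 and 0.238.

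*ist-1* (WBGene00002163, chromosome X, plus strand, 7126648 to 7139666) encodes the worm counterpart of the mammalian insulin receptor substrates, adaptors that dock PI3 kinase to the receptor. It was the least counted of the pathway genes, with 208, 197 and 192 counts in the control and 174, 197 and 128 in the labelled libraries. On the CPM scale this was 6.07, 5.44 and 5.29 against 5.14, 4.43 and 3.18, without overlap between the groups. Its log2 fold change of −0.40 with an SE of 0.16 (edgeR adjusted p = 0.118) had the largest size among the 10 genes. It was −0.23 without labelled replicate 3 and −0.16 with the length trend removed (edgeR adjusted p of 0.239 and 0.393).

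The PI3 kinase consists of a catalytic subunit, encoded by *age-1* (WBGene00000090, chromosome II, minus strand, 11519328 to 11527054), and an adaptor subunit, encoded by *aap-1* (WBGene00000001, chromosome I, plus strand, 5107843 to 5110183). *age-1* had 105, 104 and 106 CPM in the control and 107, 105 and 78.9 CPM in the labelled libraries. Labelled replicates 1 and 2 thus lay at the level of the control, and replicate 3 alone lay below. The log2 fold change was −0.11 (SE 0.11, edgeR adjusted p = 0.491), and it was 0.025 without labelled replicate 3. *aap-1* had 105, 99.4 and 107 CPM against 114, 108 and 103 CPM, so that the groups overlapped (log2 fold change 0.065, SE 0.069, edgeR adjusted p = 0.539). Without labelled replicate 3 the log2 fold change of *aap-1* was 0.11 (edgeR adjusted p = 0.142).

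Among the kinases below PIP3, *pdk-1* encodes the kinase that phosphorylates and so activates AKT and SGK. *pdk-1* (WBGene00003965, chromosome X, plus strand, 1321344 to 1327986) had 35.3, 34.2 and 34.9 CPM in the control and 32.2, 33.6 and 28.1 CPM in the labelled libraries. The groups did not overlap, but the gap between the highest labelled and the lowest control library was small beside the spread of the labelled ones. The log2 fold change was −0.15 (SE 0.080, edgeR adjusted p = 0.211), it was −0.074 without labelled replicate 3, and it was −0.0065 with the length trend removed. *akt-1* (WBGene00000102, chromosome V, plus strand, 10248905 to 10252845) and *akt-2* (WBGene00000103, chromosome X, plus strand, 14147700 to 14152070) encode the 2 AKT kinases, which share the inhibition of DAF-16. *akt-1* had 283, 271 and 286 CPM in the control and 318, 296 and 281 CPM in the labelled libraries, with a log2 fold change of 0.090 with an SE of 0.077 (edgeR adjusted p = 0.44). *akt-2* was far lower, with 15.8, 14.7 and 16.3 CPM against 16.1102, 15.8 and 14.1 CPM (log2 fold change −0.025, SE 0.089). Both genes overlapped between the groups, and without labelled replicate 3 the log2 fold changes were 0.14 for *akt-1* (edgeR adjusted p = 0.0627) and 0.039 for *akt-2*. *sgk-1* (WBGene00004789, chromosome X, minus strand, 16254842 to 16262122) encodes a related kinase that also receives input from TOR complex 2, and it had 20.8, 20.0 and 16.01 CPM against 18.1, 20.0 and 17.1 CPM. It was the only pathway gene with a wider relative spread in the control (13.6% of the mean) than in the labelled libraries (8.09%), and its log2 fold change was −0.041 (SE 0.11, edgeR adjusted p = 0.826).

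The lipid phosphatase gene *daf-18* (WBGene00000913, chromosome IV, minus strand, 420011 to 425177) had 806, 752 and 865 CPM in the control. In the labelled libraries it had 918, 882 and 681 CPM, 2 of them above and replicate 3 below every control library. The log2 fold change was 0.035 (SE 0.12, edgeR adjusted p = 0.865), it was 0.16 without labelled replicate 3 (edgeR adjusted p = 0.0704), and it was 0.25 with the length trend removed (edgeR adjusted p = 0.0584).

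At the end of the pathway, *daf-16* (WBGene00000912, chromosome I, plus strand, 10750498 to 10776703, with 11 annotated transcripts, which the counts do not separate) had 201, 198 and 194 CPM in the control and 199, 180.5 and 155 CPM in the labelled libraries. Labelled replicate 1 lay within the control, and replicates 2 and 3 lay below. On average this was 198 ± 3.78 CPM against 178 ± 22.1 CPM (each SD, n = 3), or a log2 fold change of −0.15 (SE 0.093, 95% interval −0.36 to 0.056, edgeR adjusted p = 0.283). Without labelled replicate 3 it was −0.054, and with the length trend removed it was 0.025.

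**Figure D2:**
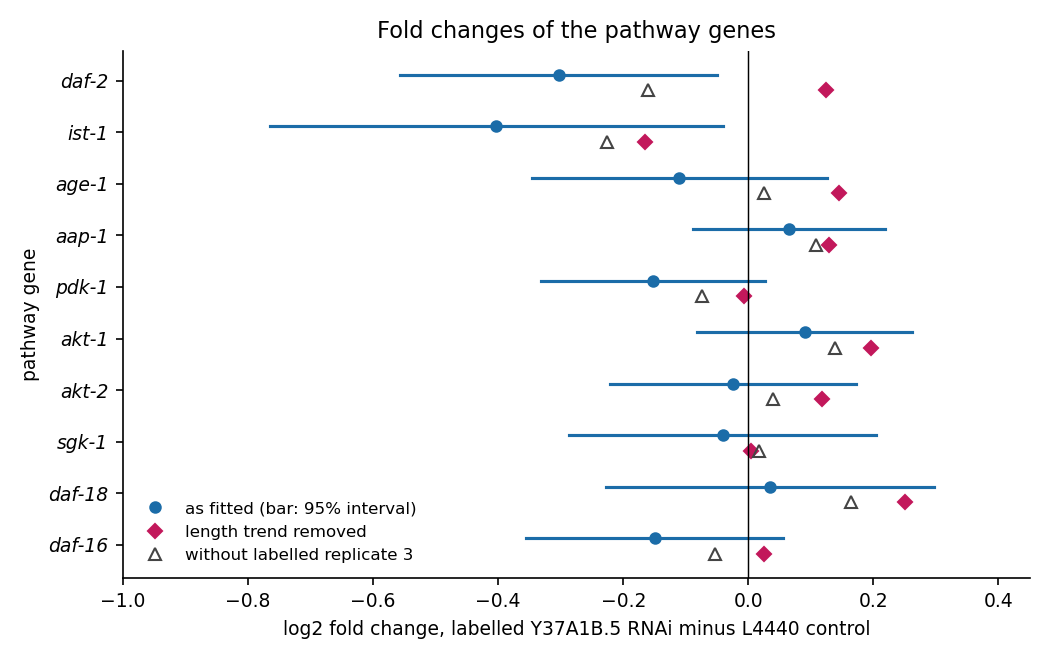
Log2 fold change of each pathway gene between the libraries labelled Y37A1B.5 RNAi and the L4440 control, as fitted with edgeR (blue, with its 95% interval), with the length trend removed (pink diamonds) and without labelled replicate 3 (open triangles). As fitted, the intervals of *daf-2* and *ist-1* alone exclude 0, and the diamond of *daf-2* lies on the other side of 0, at 0.12.

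How the genes varied over the libraries was examined against the mean log2 CPM of the control. The median over the 10 genes was 0.020 and 0.015 in labelled replicates 1 and 2, and −0.27 in labelled replicate 3, where 9 of 10 genes lay below the control mean and 7 of 10 had their lowest value of all 6 libraries. The genes lowest in that replicate were *ist-1* (−0.82), *daf-2* (−0.62) and *age-1* (−0.41), which also have the longest transcripts of the 10 (3681, 7325 and 3929 bp). *akt-1* (0.0034) and *aap-1* (−0.011), with 2086 and 1806 bp, lay near 0 there. Across the 10 genes, these values in labelled replicate 3 correlated with the logarithm of transcript length (Pearson's r = −0.77, 10 genes of a single library, which share its depth and scaling), while r was −0.45 and −0.55 in labelled replicates 1 and 2 and lay between −0.41 and 0.25 in the control libraries. With the length trend removed in the fit, the median log2 fold change of the 10 genes moved from −0.076 to 0.12, while that of all genes tested moved from −0.028 to 0.044, and again 0 of 10 were called with edgeR (19.4% of all genes). What part transcript length or RNA quality has in these values was not tested.

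**Figure D3:**
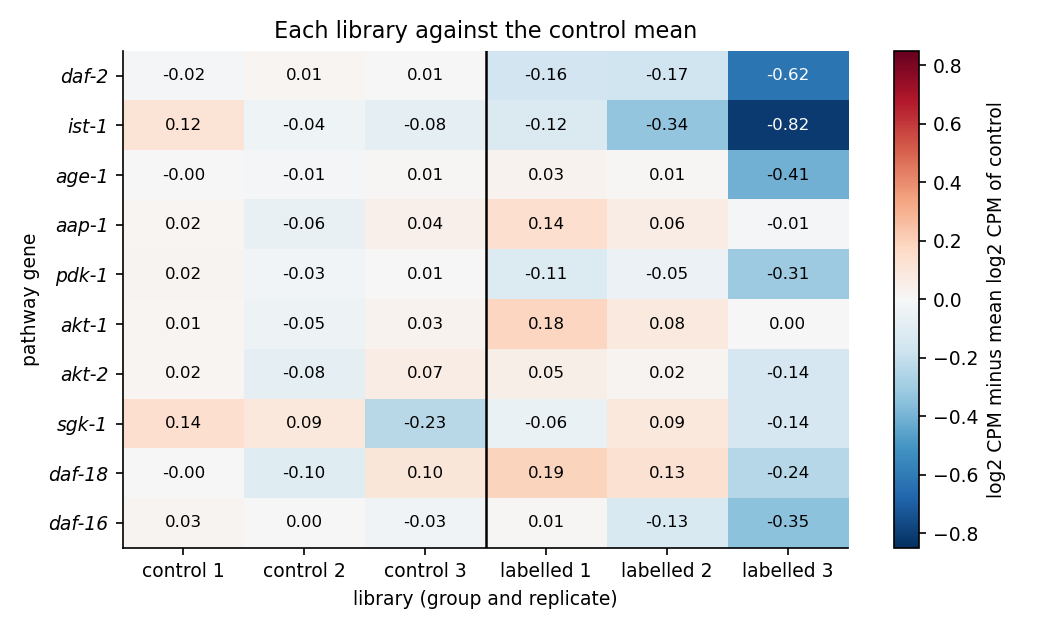
Each library's log2 CPM minus the mean log2 CPM of the 3 control libraries, for the 10 pathway genes (rows) and 6 libraries (columns, controls left of the line). The column of labelled replicate 3 holds the lowest values, down to −0.82 for *ist-1* and −0.62 for *daf-2*, while the control columns stay between −0.23 and 0.14.

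Ratios of 2 genes within a library do not depend on the scaling between libraries and were compared for 6 pairs, on the scale of counts per kb of exon. *akt-1* exceeded *akt-2* by a ratio of 18.8, 19.2 and 18.3 in the control and of 20.6, 19.6 and 20.8 in the labelled libraries. The phosphatase gene *daf-18* exceeded the kinase gene *age-1* by 9.06, 8.53 and 9.65 in the control and by 10.1, 9.86 and 10.2 in the labelled libraries. *pdk-1* relative to *akt-1* was 0.117, 0.118 and 0.1148 in the control and 0.0952, 0.107 and 0.0943 in the labelled libraries. In these 3 pairs the groups did not overlap, and the log2 ratio differed by 0.11, 0.15 and −0.25, in each case with an exact permutation p = 0.1 (two-sided, the smallest possible) and p = 0.15 when adjusted over the 6 pairs. With the length trend removed these differences were 0.079, 0.11 and −0.20. The groups did not overlap for *aap-1* over *age-1* either (log2 difference 0.19, exact permutation p = 0.1, adjusted p = 0.15). Those of *daf-16* over *daf-2* overlapped (0.16, exact permutation p = 0.2). In both of these pairs the members differ in transcript length, and with the length trend removed the differences turned to −0.016 and −0.10. For *sgk-1* over *akt-1* the difference was −0.12 (exact permutation p = 0.4).

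Of the genes around the pathway, the insulin-like peptides act as ligands of DAF-2, some of them as agonists and others as antagonists. Of 39 genes, 24 passed the filter on low counts, and 2 of these were called higher and 6 lower in the labelled libraries, beside 4.81% and 8.85% of all genes. The median log2 fold change of the 24 was −0.11. The count of 8 fell to 3 without control replicate 1, control replicate 2 or labelled replicate 1, and to 4 without labelled replicate 2. Over all genes, 862 of 15279, 727 of 15171, 1346 of 15341 and 1390 of 15217 were called in these fits, in that order. *ins-2* (WBGene00002085) fell from 1102, 1253 and 1193 counts to 566, 689 and 832 counts, a log2 fold change of −0.91 with an SE of 0.11 (edgeR adjusted p = 0.00072). *ins-34* fell by 0.53 on the log2 scale (edgeR adjusted p = 0.00511), and both kept their call under each of the 15 alternatives. *ins-4*, an agonist of DAF-2 in dauer control, fell from 1.74 ± 0.262 to 0.991 ± 0.134 CPM (each SD, n = 3), or by 0.80 on the log2 scale (edgeR adjusted p = 0.0218), but lost its call in 4 of the fits that left out a library. *ins-19*, which was called higher, is named after its values were seen, and its groups overlapped. *daf-28* and *ins-6*, further agonists of DAF-2, had log2 fold changes of 0.31 and 0.068 (edgeR adjusted p of 0.271 and 0.845) and are also named after their values were seen.

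Before release, insulin-like peptides are cleaved by proprotein convertases and packed into dense core vesicles. Of 8 genes of these steps, 0 were called higher and 3 lower (8.85% of all genes), namely *hid-1*, *kpc-1* and *unc-31*. *hid-1*, which takes part in dense core vesicle formation, fell from 51.8 ± 1.15 to 34.7 ± 3.71 CPM (each SD, n = 3), or by a log2 fold change of −0.58 with an SE of 0.084 (edgeR adjusted p = 0.0025), and kept its call under each of the 15 alternatives. *kpc-1*, a convertase gene, and *unc-31*, whose product CAPS is needed for vesicle release, fell by 0.44 and 0.46, but each lost its call in 8 alternatives, the removal of the length trend among them (edgeR adjusted p of 0.136 and 0.449). Without control replicate 1 or 2 or labelled replicate 1 or 2, in turn, 1 gene of this list was called. Over all genes, 862 of 15279, 727 of 15171, 1346 of 15341 and 1390 of 15217 were called in these fits. With all libraries, 2 of 12 neuronal marker genes were called lower (8.85% of all genes) and 0 higher. Their summed levels were 309 to 328 CPM in the control and 282 to 309 CPM in the labelled libraries. *unc-31* and *egl-3* are in both lists. The part of neuronal RNA in these decreases was not tested.

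Of 18 genes that act on the kinase steps or belong to the TOR complexes, 13 passed the filter and 0 were called with edgeR (2, both lower, with DESeq2), beside 13.7% and 19.3% of all genes. At an unadjusted p under 0.05, which 33.1% of all genes had, 1 of the 13 was higher and 4 were lower. Without labelled replicate 3, edgeR called 4, beside 2811 of 15203 genes tested. Among 24 partners and modifiers of DAF-16, 4 were called lower and 0 higher, beside 8.85% and 4.81% of all genes, and the median log2 fold change was −0.18. The genes *cst-1* and *cst-2*, which encode worm counterparts of the Hippo kinase MST, a kinase of FoxO factors, were the lower ones with the smallest p. *cst-1* had 1546, 1682 and 1687 counts in the control and 1088, 1494 and 1291 in labelled ones, which gave a log2 fold change of −0.50 with an SE of 0.064 (edgeR adjusted p = 0.00132). *cst-2* had 769, 829 and 798 counts against 444, 701 and 594, a log2 fold change of −0.62 with an SE of 0.087 (edgeR adjusted p = 0.00201). Both kept their call under each of the 15 alternatives, but they are closely related copies, and reads that map to both were not counted. *hpk-1*, a homeodomain-interacting protein kinase gene, and *cbp-1*, a CBP/p300 acetyltransferase gene named after its values were seen, fell by 0.45 and 0.54, and both lost their call when the length trend was removed (edgeR adjusted p of 0.0633 and 0.2). Without control replicate 1 or 2, the number of partners called was 2, beside 862 of 15279 and 727 of 15171 genes tested. Without labelled replicate 3 it was 9, beside 2811 of 15203. With the length trend removed, 2 partners were called lower and 1 higher, beside 19.4% of all genes called in either direction. The median log2 fold change of the partners was then −0.040.

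Genes downstream of DAF-16 were described as 2 lists. Of 26 tested genes that active DAF-16 is known to raise, 5 were called higher (4.81% of all genes) and 0 lower, with a median log2 fold change of 0.057. *cyp-35B1*, a cytochrome P450 gene, rose from 2.80, 2.49 and 3.17 CPM to 5.91, 5.62 and 7.97 CPM, a log2 fold change of 1.205 with an SE of 0.16 (edgeR adjusted p = 0.00166). *ftn-1*, a ferritin gene, rose by 0.77 and *dod-3* by 0.99 on the log2 scale (edgeR adjusted p of 0.00861 and 0.00879), and these 3 kept their call under each of the 15 alternatives. The others called were *lys-7* (0.44) and *cyp-34A9* (0.29), named after their values were seen, which lost their call in 2 and 6 alternatives. The superoxide dismutase gene *sod-3*, the most used readout of DAF-16 activity, averaged 1.36 ± 0.139 CPM in control against 1.34 ± 0.238 CPM in labelled libraries (each SD, n = 3), or a log2 fold change of −0.011 with an SE of 0.19 (edgeR adjusted p = 0.976), and is named after its values were seen. Without control replicate 2, 3 genes of this list were called, beside 727 of 15171 genes tested.

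Of 11 genes whose mRNA is lower in *daf-2* mutants, 3 were called higher and 0 lower, beside 4.81% and 8.85% of all genes. *dod-24* rose from 519, 414 and 485 counts to 1183, 1406 and 1322 counts, a log2 fold change of 1.32 with an SE of 0.10 (edgeR adjusted p = 0.000521). *dod-22* rose by 1.32 as well (SE 0.19, edgeR adjusted p = 0.00211), and both kept their call under each of the 15 alternatives. *ins-7*, an agonist of DAF-2 that is repressed by DAF-16, rose from 243, 228 and 239 counts to 253, 407 and 433 counts (log2 fold change 0.46, edgeR adjusted p = 0.0482), but lost its call in 8 alternatives. The median log2 fold change of this list was 0.24, so that genes of both downstream lists were among the higher ones. Of the 10 genes of the TGF-beta and steroid hormone arms of dauer control, *daf-3*, a Smad gene, was called lower (8.85% of all genes) at −0.34 (edgeR adjusted p = 0.0496), and it lost its call in 7 alternatives, among them the removal of the length trend and of control replicate 1, control replicate 2 or labelled replicate 1.

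**Figure D4:**
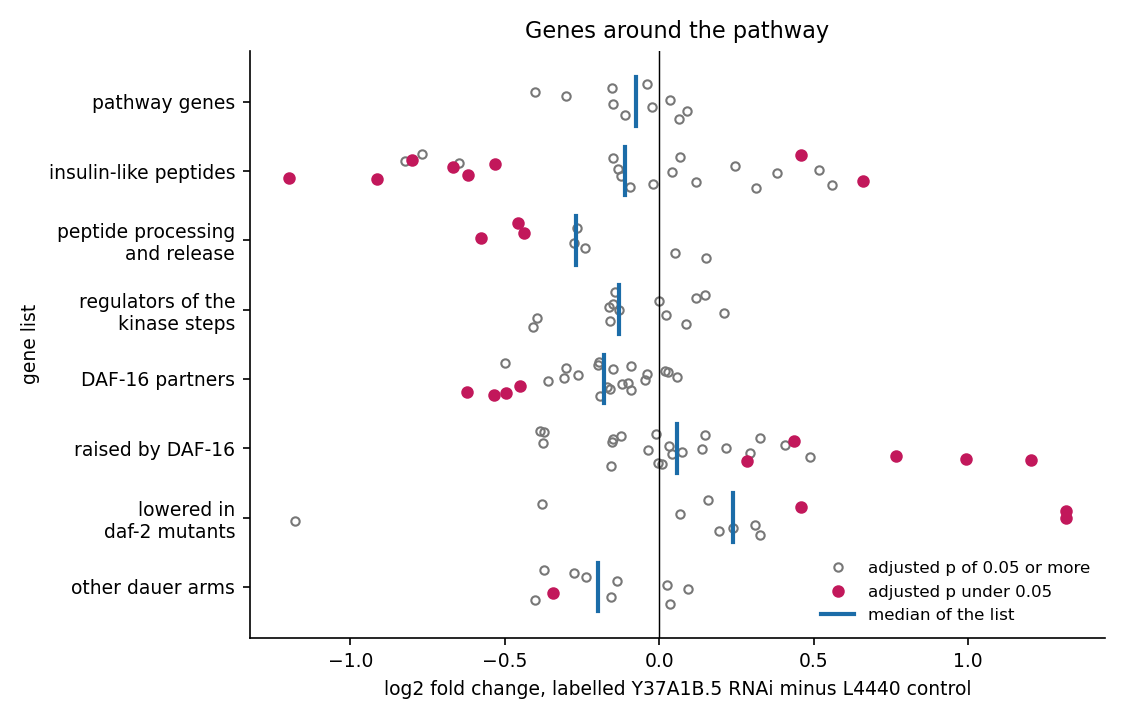
Log2 fold change of each tested gene in 8 lists, with filled points at an edgeR adjusted p under 0.05 and a blue line at the median of the list. The 10 pathway genes hold no filled point and lie between −0.40 and 0.090, whereas filled points reach −1.1998 among the insulin-like peptides and 1.32 among the genes lowered in *daf-2* mutants.

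Markers of other tissues and stages were measured beside these values. Of 12 genes of the molting larva, 8 were called lower and 0 higher, beside 8.85% and 4.81% of all genes as for each list of markers, with a summed level of 486 to 601 CPM in the control and 250 to 294 CPM in the labelled libraries. The summed level of 17 oocyte and eggshell genes was 14950 to 17011 CPM in the control and 15297 to 18431 CPM in the labelled libraries, and that of 12 sperm genes was 15.8 to 18.6 against 13.6 to 17.6 CPM. For 10 embryonic genes it was 41.1 to 50.3 against 37.7 to 42.5 CPM (1 of 7 tested was called lower). The 10 hypodermal genes summed to 171 to 178 against 136 to 159 CPM, with 1 called higher and 2 lower. The 10 body wall muscle genes summed to 454 to 541 against 440 to 515 CPM, with 1 called higher and 0 lower. For 9 intestinal genes the sum was 12527 to 15832 against 8140 to 14746 CPM, with 1 called higher and 0 lower. Gene by gene, the median log2 fold change was −0.64 for the molting larva (0 positive and 12 negative values) and 0.043 for oocyte and eggshell (13 and 4). It was −0.22 for sperm (3 and 4), −0.29 for the embryo (1 and 6) and −0.46 for the hypodermis (1 and 9). For body wall muscle it was 0.016 (5 and 5), and for the intestine 0.11 (5 and 4). The molting larva and hypodermal lists share *rol-6*. No gene of these lists was at 0 in all libraries. The part of these tissues and stages in the values of the pathway genes was not tested.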

How the data were processed

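RNA-Seq of 6 libraries was analyzed, 3 per group. The authors deposited raw counts per gene, made with bcl2fastq 1.8.4, quality trimming, TopHat2 2.1.0 on WBcel235 with the Ensembl release 90 annotation and featureCounts 1.5.0, on the gene's strand and without reads that mapped to several places or genes. Antisense neighbours of the pathway genes are therefore counted apart. Genes were tested here with edgeR 4.0.16 in R 4.3.3 (TMM factors, filterByExpr with a minimum count of 10 and a minimum total of 15, two-sided quasi-likelihood test, Benjamini-Hochberg adjustment over 15003 genes, threshold 0.05). The standard error is the log2 fold change divided by the signed root of F, and intervals cover 95%. CPM is on the TMM scale. Symbols came from a table of gene names, positions and lengths from Ensembl release 115, and 99.4% of genes tested have a length. Exon length is the union of all exons of a gene.

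The alternatives were RLE and upper-quartile factors, DESeq2 1.42.0, no filter, at least 10 counts in every library, scaling to reference genes (*pmp-3*, *cdc-42*, *tba-1*), a block for the replicate number, removal of a loess trend (span 0.5) of log2 CPM on transcript length from each library, the latter with the block, and leaving out each library. For ratios, the length alternative was added after values were seen. The 10 genes and the lists were chosen with earlier results of these data known, and the lists were written from general knowledge. The genes named are the 10 pathway genes and, in each list, at most 3 called genes with the smallest adjusted p, apart from those said to be named later. The symbols *hsp-16.11* and *opt-2* found no gene. The study describes the 3 libraries of each group as biological replicates from separate experiments. Protein and promoter sequences were not used here.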

Additional observations from a re-analysis of the deposited data

How the results depend on the processing

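The number of pathway genes called was 0 as fitted and under 12 of 15 alternatives. It was 2 without a filter on low counts (*daf-2* at −0.29 and *ist-1* at −0.39), beside 3298 of 25681 genes. With scaling to reference genes it was 1 (*daf-2* at −0.28, edgeR adjusted p = 0.0491), beside 10.2% of all genes. When a library was left out it was between 0 and 1. *aap-1*, *akt-1*, *pdk-1* and *ist-1* kept their direction under all 15 alternatives. With the length trend removed, *daf-2*, *age-1*, *akt-2*, *sgk-1* and *daf-16* turned to 0.125, 0.145, 0.118, 0.0040 and 0.025, and with the block added to 0.125, 0.143, 0.119, 0.0085 and 0.0225. *akt-2* was 0.0060 with DESeq2 and 0.0026 with reference gene scaling. Leaving out a library gave ranges of −0.17 to 0.025 for *age-1*, −0.064 to 0.039 for *akt-2*, −0.15 to 0.032 for *sgk-1* and −0.033 to 0.16 for *daf-18*. For the ratios, with the length trend removed *aap-1* over *age-1* gave −0.0164 and *daf-16* over *daf-2* gave −0.0999, and leaving out a library gave 0.083 to 0.26, 0.10 to 0.19, 0.097 to 0.14, −0.26 to −0.058, −0.30 to −0.21 and 0.11 to 0.22 for *aap-1*/*age-1*, *daf-18*/*age-1*, *akt-1*/*akt-2*, *sgk-1*/*akt-1*, *pdk-1*/*akt-1* and *daf-16*/*daf-2*. The cause of these turns was not tested.

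Over all genes, 2050 of 15003 were called as fitted, 3298 of 25681 without the filter, and 3664 of 14919 with the length trend removed and the block. Upper-quartile factors gave 2044 of 15003. Between 727 of 15171 and 2811 of 15203 were called when a library was left out. The share called was 13.7% as fitted, 19.3% with DESeq2, 19.4% with the length trend removed and 10.2% with reference gene scaling. The counts per list below are to be read beside these. The share of higher genes was 35.2% as fitted, 48.1% with DESeq2, 23.8% with upper-quartile factors and 58.9% with the length trend removed. Without a filter, 2 kinase regulators (0 as fitted), 7 DAF-16 partners (4), 10 genes raised by DAF-16 (5), 6 lowered in *daf-2* mutants (3) and 2 of the other dauer arms (1) were called. With reference gene scaling, 5 insulin-like peptides (8), 1 gene of peptide processing (3), 1 kinase regulator and 0 of the other dauer arms were called. DESeq2 called 2 kinase regulators, both lower, and 2 of the other dauer arms, and upper-quartile factors called 2 of the latter. With the length trend removed, 1 gene of peptide processing, 2 kinase regulators, 5 genes lowered in *daf-2* mutants and 0 of the other dauer arms were called, and with the block added 1, 3, 4 and 0. The 2 kinase regulators called with the length trend removed were higher, and were not those called with DESeq2. Leaving out a library gave 3 to 6 insulin-like peptides, 1 to 2 genes of peptide processing, 0 to 4 kinase regulators, 2 to 9 partners, 3 to 6 genes raised by DAF-16, 2 to 4 lowered in *daf-2* mutants and 0 to 1 of the other dauer arms.

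With the replicate number as a block, 2917 genes (19.4%) and 0 pathway genes were called (lowest edgeR adjusted p 0.0527, *ist-1*). Also called were 5 genes of peptide processing, 1 kinase regulator, 8 genes raised by DAF-16 and 2 of the other dauer arms. Same-numbered libraries deviated from their group means with correlations of 0.14, 0.063 and 0.12, not over 0.1 for each pair, so that the numbers were not taken as pairs, although every library correlated best with its own number. The call of *daf-2* thus depends on the filter, the scaling and labelled replicate 3. *ist-1* had the lowest counts of the pathway genes, 128 to 208 per library.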
